A study of Arabidopsis thaliana with 48 samples.

Results

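Excised leaves were compared at 2 moments of the time course, 19.5 h and 25.5 h after the pre-treatment, at which the clock gene LHY (AT1G01060) was high. The members were the 3 libraries labelled 25.5 h and the 3 labelled 19.5 h, 6 of the 48 libraries of the series, with all 34262 genes of the count table. The time points lie 6 h apart and were picked by the level of LHY, so the LHY values below describe that choice and carry no test. Genes that follow LHY through the time course are not independent of that choice either. LHY and its relative CCA1 are MYB transcription factors that repress evening genes of the circadian clock, and the evening genes in turn repress them. In leaves this loop normally turns once a day and times the expression of photosynthesis, hormone and growth genes. In a detached leaf, clock output runs beside the wound response, auxin build-up at the cut, loss of supply from the plant and the start of senescence.

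All groups used here were the fourth rosette leaf of 21-day-old soil-grown Arabidopsis, excised at the petiole and floated on buffer. All received the dark and cold pre-treatment before continuous white light, so no group is an untreated control. Further pairs were 26 h against 20 h, also 6 h apart, and 24.5 h against 21 h, a pair with low LHY that lies 3.5 h apart. Each time point had 3 replicates, and no source used here says whether they were separate plates or plants. A p-value here can therefore reflect nothing more than technical variation between libraries. Whole leaves were sampled, so fewer cells of a type and less RNA per cell cannot be told apart.

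The 6 libraries held 24256327 to 34039648 counted reads, within the 23572988 to 38763552 of the series, and 21534 to 22426 genes were detected in each. Levels are given as CPM, reads scaled to a common library size, after TMM scaling, which evens out differences in RNA composition between libraries. Not all libraries resembled their own time point. Over 11460 genes with at least 10 CPM, centred on their means, the 25.5 h replicate 3 correlated with its own replicates at -0.102 and 0.197, and at 0.846 with its best match, the 25 h replicate 1. For the 25.5 h replicate 1 the best match was the 24 h replicate 3 (r = 0.8). The 19.5 h replicate 3 matched the 22 h replicate 1 best, at an r of 0.748. The 26 h replicate 2 differed from its replicates by a chi-square of 192 to 250 per degree of freedom. The same value ran from 13.02 to 41.17 within 19.5 h and from 11.82 to 55.66 within 25.5 h, and no replicates of these time points held identical counts. Whether labels were exchanged between libraries was not tested, and the groups are used as labelled.

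LHY stood at 406, 389 and 384 CPM in the 3 libraries of 19.5 h and at 268, 265 and 182 CPM in those of 25.5 h. The groups did not overlap, and 25.5 h was the lower. Among the 16 time points the mean of 393 ± 11.2 CPM (SD, n = 3) at 19.5 h was the highest. The means of 22 h (239 ± 63.2), 25.5 h (238 ± 49.1), 20.5 h (238 ± 31.9) and 22.5 h (233 ± 183) followed and lay within one another's spread. The lowest mean was 33.2 ± 4.8 CPM at 21 h. Both time points were thus in the upper part of the range, but 25.5 h was less so than 19.5 h.

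None of the other clock genes tested passed, neither the 6 further MYB genes nor the 19 day and evening genes, by edgeR, DESeq2 or limma-voom. RVE6 was left out of the MYB genes because the name table gives its locus no such symbol. At an unadjusted p under 0.05, 3 of the day and evening genes were higher and 1 lower, and none of the MYB genes, against 1822 higher and 1662 lower of all 17567. Over all genes tested, 364 of 17567 (2.07%) were called higher and 255 (1.45%) lower. The calls are edgeR's quasi-likelihood test at a Benjamini-Hochberg adjusted p under 0.05. CCA1 had 245, 199 and 162 CPM at 19.5 h and 148, 134 and 107 CPM at 25.5 h, a log2 fold change of -0.64 (SE 0.44, adjusted p = 0.439). RVE8, a MYB activator of evening genes, stood at -0.41 (adjusted p = 0.641) and RVE2 at 1.18 (adjusted p = 0.327). PRR5, which represses LHY and CCA1, had the largest value among the day and evening genes, with 1.6, 1.3 and 1.37 CPM against 3.1, 3.56 and 4.78 CPM. Its 3 later libraries all lay above the earlier ones, yet the log2 fold change of 1.42 carried a standard error of 0.70 (adjusted p = 0.256). ELF3, a subunit of the evening complex, stood at 0.49 (adjusted p = 0.113) and TOC1, an evening repressor, at 0.51 (adjusted p = 0.178). PRR7, whose promoter the study followed, stood at 0.35 (adjusted p = 0.611). The output list had 1 call among 10 tested genes, a fall of CDF3, a repressor of flowering genes, from 109, 99.1 and 93.7 CPM to 69.1, 66.8 and 77.3 CPM. That call, with a log2 fold change of -0.50 (adjusted p = 0.0441), was lost whenever 1 of the 6 libraries was left out, with an adjusted p of up to 0.137. With 3 libraries of other time points left out (22.5 h replicate 1, 24 h replicate 3 and 26 h replicate 2), 2 of the 6 MYB genes were called lower and 3 of 19 day and evening genes higher and 1 lower. That setting was chosen after seeing the data and called 1004 of all 17567 genes higher and 1261 lower. With only the 6 libraries compared in the fit, 1 MYB gene was called lower and 1 day and evening gene higher (260 higher and 372 lower over all genes).

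**Figure D1:**
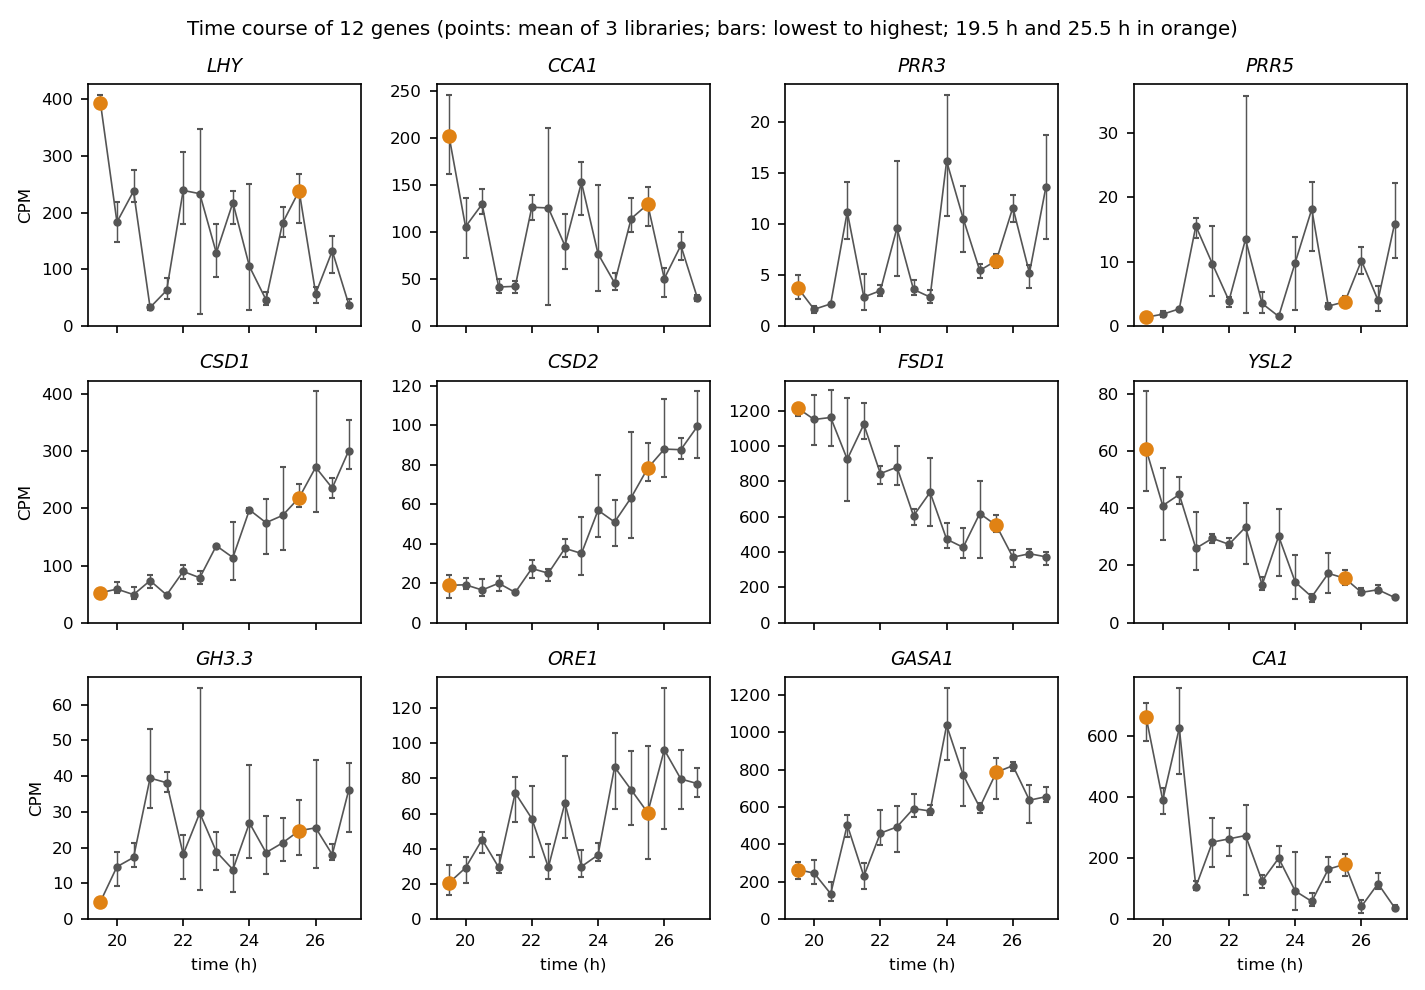
Mean level in CPM (points, n = 3) of 12 genes over the 16 time points in hours, with bars from the lowest to the highest library and 19.5 h and 25.5 h in orange. LHY stood at 393 CPM at 19.5 h and 238 CPM at 25.5 h, while CSD1 went from 52.4 to 219 CPM.

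Between the LHY-high time points, 619 of 17567 genes (3.52%) were called. The number at an unadjusted p under 0.05 was 3484. A change of at least 2-fold was found in 111 of the genes called higher (0.632% of all tested) and 55 of those called lower (0.313%). The median log2 fold change was 0.70 among the genes called higher and -0.60 among those called lower, against 0.008 over all genes. In 610 of the 619 genes the 6 values did not overlap between the groups, as they did not in 29.1% of all genes tested. The number of calls changed with single libraries, in both directions. Without the 25.5 h replicate 3 only 58 genes were called higher and 24 lower, and without the 19.5 h replicate 2 only 81 and 50. Leaving out the 19.5 h replicate 1 gave 144 and 186, the 19.5 h replicate 3 gave 236 and 162, and the 25.5 h replicates 1 and 2 gave 213 and 121, and 218 and 121. All 619 genes kept their sign under each of these, and 63 kept their call under all 6. Leaving out a library outside the comparison, the 26 h replicate 2, raised the counts to 593 higher and 545 lower. With only the 6 libraries compared in the fit, 260 were called higher and 372 lower, and 253 of the 619 calls were kept. Of the 52 called genes named by the rule given in the methods, 13 lost their call in that fit. They were YUC8, ARF19, NAC1, EAR1, IAA19, GH3.6, NYE2, ERS1, EIL1, LSF1, CDF3, ERD9 and AT5G02760. Called genes named outside that rule are not in this count. Without the third replicate of both time points, 39 were called higher and 14 lower. Scaling by library totals alone, which moved the median of all genes to 0.157, called 1724 genes higher and 108 lower. With DESeq2 size factors 325 were called higher and 331 lower. The near balance of directions thus holds with these and with TMM scaling, but not with library totals alone.

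**Figure D2:**
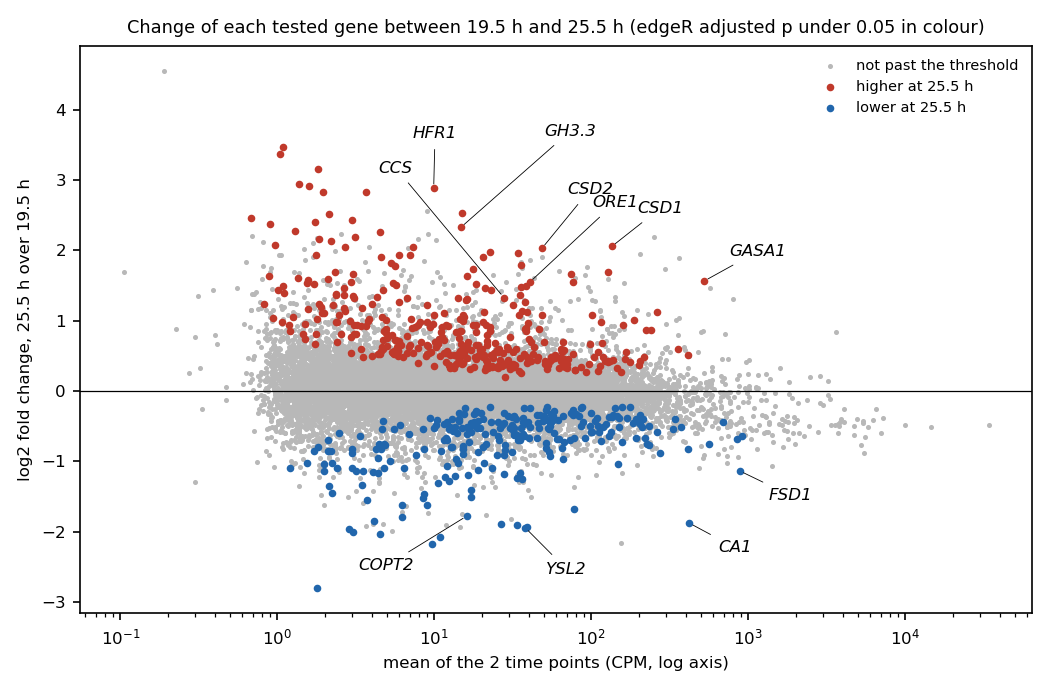
Log2 fold change of each tested gene, 25.5 h over 19.5 h, against the mean of both time points in CPM on a log axis, with the 364 genes called higher in red and the 255 called lower in blue. CSD1 and CSD2 lay at 2.06 and 2.03, FSD1 at -1.14 and CA1 at -1.88.

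The superoxide dismutase genes CSD1, CSD2 and FSD1, the chaperone gene CCS and the transporter gene YSL2 were among the calls that held with each library left out. Copper/zinc superoxide dismutases remove superoxide in the cytosol (CSD1) and the chloroplast (CSD2), CCS is the chaperone that loads them with copper, and FSD1 is an iron enzyme that can stand in for them. CSD1 (AT1G08830) had 57.6, 55.2 and 44.2 CPM at 19.5 h and 211, 243 and 202 CPM at 25.5 h. CSD2 (AT2G28190) had 24.2, 20.1 and 12.5 CPM against 71.6, 91.2 and 71.8 CPM. Every later library exceeded every earlier one in both genes, which the rule for naming them required. Their log2 fold changes were 2.06 (SE 0.27, adjusted p = 5.99e-05) and 2.03 (SE 0.28, adjusted p = 9.66e-05), or 4.16-fold and 4.08-fold. CCS (AT1G12520) rose from 18.9, 13.1 and 15.3 CPM to 36, 43.7 and 39.3 CPM, a log2 fold change of 1.33 (SE 0.15, adjusted p = 5.76e-06).

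FSD1 (AT4G25100) fell, from 1171, 1236 and 1237 CPM to 527, 512 and 612 CPM, a log2 fold change of -1.14 (SE 0.21, adjusted p = 0.00232). YSL2 (AT5G24380), a metal-nicotianamine transporter, fell from 54.7, 80.7 and 45.9 CPM to 18.4, 15 and 13.2 CPM, a log2 fold change of -1.95 (SE 0.34, adjusted p = 0.0015). COPT2 (AT3G46900), a copper importer, fell from 19.6, 34.7 and 20.4 CPM to 9.72, 6.06 and 5.98 CPM, a log2 fold change of -1.78 (SE 0.44, adjusted p = 0.0201). None of these 3 genes overlapped between the time points, as in 610 of the 619 called genes. For YSL2 and COPT2 the rule for naming them required it. The calls of CSD1, CSD2, CCS, FSD1 and YSL2 were kept with each of the 6 libraries left out and without the third replicates, while that of COPT2 was kept in 3 of 6 (adjusted p up to 0.126, without the 19.5 h replicate 2). Of 20 copper proteins and transporters, a list drawn up after these values were seen that also holds FSD1, 5 were called higher and 4 lower. Over all genes tested 3.52% were called, but a list made from the same values cannot serve as a test. CCS, FSD1 and the other 3 called genes were likewise picked after their values were seen. Those 3 were HMA5 and RAN1, copper-pumping ATPases, higher by 0.89 and 0.26 on the log2 scale, and the importer COPT1, at -0.70, with calls kept in 4, 3 and 2 of 6 leave-outs. SPL7, the copper-sensing regulator, stood at -0.26 (adjusted p = 0.267). Over the whole window the mean of CSD2 was 15.3 ± 0.279 CPM at 21.5 h, 57 ± 16.3 at 24 h and 99.4 ± 16.9 at 27 h (SD, n = 3).

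**Figure D3:**
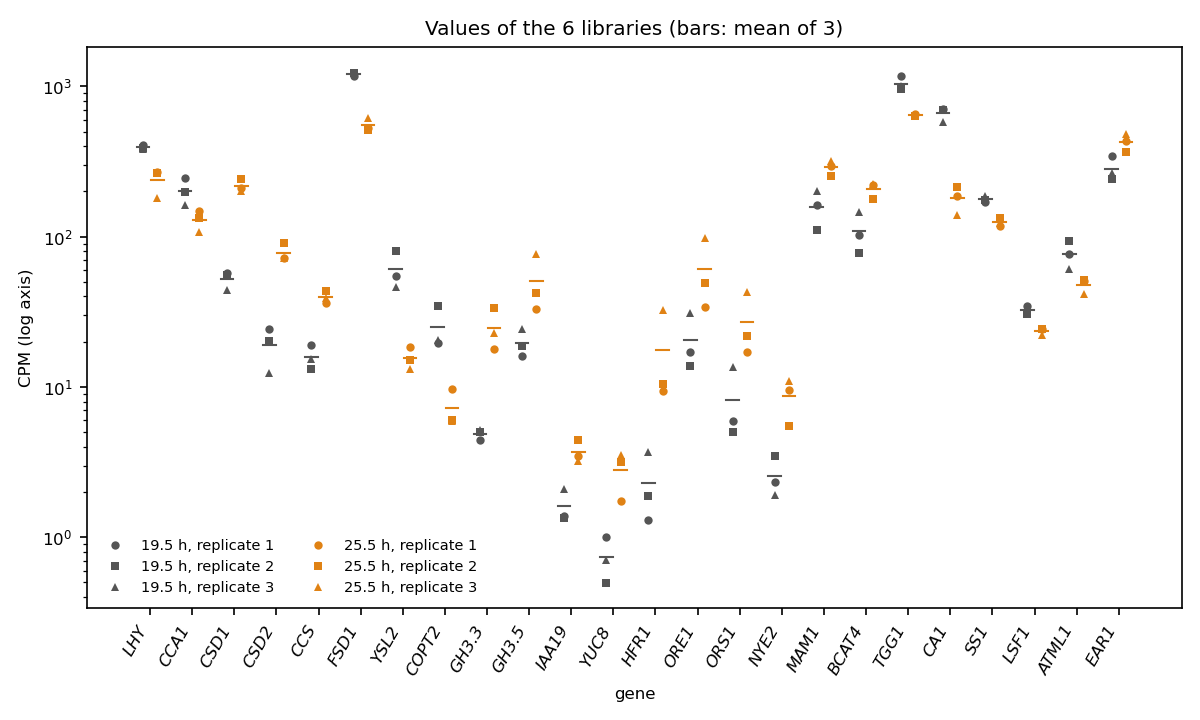
CPM on a log axis of 24 genes in each of the 6 libraries, 19.5 h in grey and 25.5 h in orange, with a symbol for each replicate and a bar at each mean. For CSD1 the libraries of 19.5 h lay between 44.2 and 57.6 CPM and those of 25.5 h between 202 and 243 CPM, whereas in ORE1 the highest library of 19.5 h (30.8 CPM) came close to the lowest of 25.5 h (34.2 CPM).

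Among called genes that averaged 10 CPM or more and whose groups did not overlap, the limits set for naming the largest changes, AT5G39520 had the largest rise. It is a gene of unknown function with a DUF1997 domain and went from 3.11, 5.81 and 4.46 CPM to 25, 14.7 and 37.6 CPM. Its log2 fold change was 2.52 (SE 0.45, adjusted p = 0.00168). TH8, a thioredoxin, had 17.8, 15.5 and 8.35 CPM against 67.7, 38.1 and 56.7 CPM, a log2 fold change of 1.96 (SE 0.37). GASA1, a small cysteine-rich peptide gene that responds to gibberellin, was the most abundant, with 277, 303 and 214 CPM against 853, 641 and 862 CPM, a log2 fold change of 1.56 (SE 0.24, adjusted p = 0.000506). All 3 calls were kept with each library left out. So was that of AT4G23680, a lipid transport family gene, at 1.64. Larger rises were called among genes of lower level, and UMAMIT29 (2.95), LTI30 (2.83) and FAR1 (2.82), named after their values were seen, also kept their calls with each library left out. AT5G14920, another gibberellin-regulated peptide gene (GASA14), stood at 1.66, MAKR6, a membrane-associated kinase regulator, at 1.90, AT5G02760, a protein phosphatase 2C, at 1.79, and AT4G19420, a pectin acetylesterase, at 1.69. The 25.5 h replicate 3 was the highest library in all 4, with 330 CPM of AT4G19420 against 102 and 154 CPM in its replicates. Without that library their adjusted p lay between 0.0558 and 0.324.

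Under the same limits the falls were led by AT5G17700, a MATE family transporter, from 16.7, 22.9 and 13.2 CPM to 5.82, 4.52 and 2.18 CPM, a log2 fold change of -2.08 (SE 0.44, adjusted p = 0.00713), kept in 4 of 6 leave-outs. ZIP2 (-2.80), of the ZIP metal transporter family, and AT1G66100 (-2.17), both below that level and named after their values were seen, fell further and kept their calls with each library left out. CA1, a chloroplast carbonic anhydrase and the most abundant of the 12 falls under these limits, went from 709, 692 and 583 CPM to 186, 213 and 140 CPM. Its log2 fold change of -1.88 had a standard error of 0.52 (adjusted p = 0.0357). The call of CA1 was lost with any of the 6 libraries left out (adjusted p up to 0.20). ERD9, a glutathione transferase, stood at -1.91, AT5G55620, an uncharacterized gene, at -1.94, and AT4G15620, a CASP-like membrane protein, at -1.89, with calls kept in 2, 5 and 4 of 6. AT5G59130, a subtilase, fell from 21.5, 29.7 and 24.2 CPM to 9.72, 10.8 and 6.19 CPM, a log2 fold change of -1.51 (SE 0.23, adjusted p = 0.000474), and kept its call with each library left out. The microtubule motor AT4G38950 (-1.41), the peroxidase AT5G51890 (-1.3) and FMO GS-OX2, which oxidizes glucosinolate side chains (-1.28), each kept theirs in 2 of 6. The plastid locus ATCG01180 went from 125, 89.9 and 138 CPM to 30.4, 36.2 and 43.6 CPM and lost its call with any library left out (adjusted p up to 0.104).

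Of 16 auxin response genes tested, 4 rose and none fell (2.07% and 1.45% of all genes tested). They were the GH3 enzymes GH3.3, GH3.5 and GH3.6, which conjugate auxin to amino acids, and IAA19, a repressor of auxin responses that auxin itself induces. GH3.3 (AT2G23170) had 4.42, 5.05 and 5.13 CPM at 19.5 h and 17.9, 33.3 and 23 CPM at 25.5 h, a log2 fold change of 2.33 (SE 0.53, adjusted p = 0.0125). The groups of GH3.3 did not overlap, as in 610 of the 619 called genes. GH3.5 went from 16.1, 18.7 and 24.4 CPM to 32.8, 42.1 and 76.9 CPM, with its highest value in the 25.5 h replicate 3. IAA19 had 1.39, 1.34 and 2.1 CPM against 3.5, 4.43 and 3.2 CPM, a log2 fold change of 1.18 (SE 0.27, adjusted p = 0.012). GH3.6 stood at 1.35 (adjusted p = 0.0321). The median over the list was 0.51, and 9 of its 16 genes had their highest value of the 6 libraries in the 25.5 h replicate 3, as did 4109 of all 17567 genes tested. The calls of GH3.3, GH3.5 and IAA19 were kept in 3 of 6 leave-outs and that of GH3.6 in 1, and without the third replicates only IAA19 was called. The mean of GH3.3 was 4.87 ± 0.390 CPM at 19.5 h, the lowest of the 16 time points, and 14.7 ± 4.93 CPM at 20 h (SD, n = 3).

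Among 26 tested genes of de novo root regeneration, the process by which a detached leaf forms roots, 3 rose and none fell. The shares over all genes tested were 2.07% and 1.45%. YUC8, which makes auxin, went from 1.01, 0.497 and 0.701 CPM to 1.74, 3.15 and 3.53 CPM, a log2 fold change of 1.93 (SE 0.38, adjusted p = 0.0041). ARF19, an auxin response factor, stood at 0.84 (adjusted p = 0.024) and NAC1, a root-promoting transcription factor, at 0.74 (adjusted p = 0.0305). The median of the list was 0.08, close to that of all genes. EAR1 (AT5G22090), a component of abscisic acid signalling that the study examined, rose from 342, 244 and 263 CPM to 436, 367 and 479 CPM, a log2 fold change of 0.59 (SE 0.16, adjusted p = 0.0322). Its groups did not overlap, as in 610 of the 619 called genes. The mean of EAR1 was 283 ± 52.3 CPM at 19.5 h, the lowest of the 16 time points. It was 389 ± 43.5 CPM at 20 h, 460 ± 54.1 at 21.5 h and 427 ± 56.2 at 25.5 h (SD, n = 3). YUC8 kept its call in 5 of 6 leave-outs, ARF19 and EAR1 in 2 and NAC1 in 1. With only the 6 libraries compared in the fit none of the 4 was called (adjusted p = 0.0616 for YUC8, 0.0532 for ARF19, 0.0607 for EAR1 and 0.0544 for NAC1), and EAR1 reached an adjusted p of 0.199 without the 25.5 h replicate 3. Of the genes whose promoters the study followed, ORE1 is described with the senescence genes and the others did not pass. PIN3, an auxin efflux carrier, stood at 0.87 (adjusted p = 0.0901), KMD1, an F-box protein, at 1.71 (adjusted p = 0.211), ARF7 at -0.10 (adjusted p = 0.61) and the auxin receptor AFB2 at 0.02 (adjusted p = 0.959).

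Of 16 tested genes of senescence and chlorophyll breakdown, 4 rose and none fell (2.07% and 1.45% of all genes tested). The median of the list was 0.55. ORE1 (AT5G39610), a NAC transcription factor that drives leaf senescence, had 17.2, 13.8 and 30.8 CPM at 19.5 h and 34.2, 49 and 98.4 CPM at 25.5 h, a log2 fold change of 1.55 (SE 0.38, adjusted p = 0.0177). Its relative ORS1 had 5.89, 5.01 and 13.5 CPM against 17, 22.0 and 42.6 CPM, a log2 fold change of 1.73 (SE 0.36, adjusted p = 0.00574). In both genes the third replicate was the highest of its time point. NYE2, a stay-green protein of chlorophyll breakdown, had 2.31, 3.48 and 1.91 CPM against 9.61, 5.54 and 10.9 CPM, a log2 fold change of 1.78 (SE 0.40, adjusted p = 0.0112). NAC016 stood at 0.94 (adjusted p = 0.032). ORS1 and NYE2 kept their calls in 4 of 6 leave-outs, ORE1 in 3 and NAC016 in 1, and without the 25.5 h replicate 3 ORE1 had an adjusted p of 0.246. Without the third replicates 1 of the 16 genes, ORS1, was called.

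The genes of darkness and sugar starvation had the highest median of the 33 lists, 1.15 over 20 genes, but none passed edgeR's or limma-voom's test and 1 passed by DESeq2. At an unadjusted p under 0.05, 7 were higher (1822 of 17567 over all genes). They are genes that leaves switch on when carbohydrate runs short. Their values came with a wide spread between replicates, and 17 of the 20 had the highest of the 6 values in the 25.5 h replicate 3 (4109 of 17567 over all genes). ASN1, an asparagine synthetase, had 202, 87.6 and 104 CPM at 19.5 h and 56.7, 137 and 590 CPM at 25.5 h (adjusted p = 0.536). DIN10, a raffinose synthase-like gene, had 130, 50.4 and 293 CPM against 238, 519 and 927 CPM (adjusted p = 0.125). The groups overlapped in both. Without the 25.5 h replicate 3 the median of the list was 0.43. The part of that library in the senescence and auxin calls was not tested beyond these leave-outs.

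The photosynthesis genes listed all had values below 0, and none was called. Of 29 light harvesting, photosystem and Rubisco genes, 0 passed by edgeR or limma-voom and 1 was lower by DESeq2. Lower at an unadjusted p under 0.05 were 17, against 1662 of all 17567 genes tested. The median log2 fold change was -0.49 (range -0.91 to -0.24). In 24 of them the 25.5 h values lay below those of 19.5 h without overlap, as in 14.6% of all genes tested. CAB1, a light-harvesting protein of photosystem II, was at 39115, 37394 and 42648 CPM at 19.5 h and 25795, 28753 and 30474 CPM at 25.5 h (log2 fold change -0.49, SE 0.21, adjusted p = 0.193). CAB2, whose promoter the study followed, had 6036, 5920 and 8566 CPM against 3220, 4388 and 5354 CPM (adjusted p = 0.276). Reads of CAB1, CAB2 and CAB3, which are near-identical copies, may be divided between them uncertainly. Together the 29 genes took 172700 to 201460 CPM at 19.5 h and 113020 to 145290 CPM at 25.5 h. The scaling factors moved with them, from 0.942 to 0.98 at 19.5 h and from 1.03 to 1.1 at 25.5 h, and their part in the calls was not tested beyond the alternative scalings. With the 3 libraries of other time points left out, a setting chosen after seeing the data, 19 of the 29 were called lower (1261 of 17567 over all genes). With only the 6 libraries compared 13 were (372 of 17567 over all genes).

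**Figure D4:**
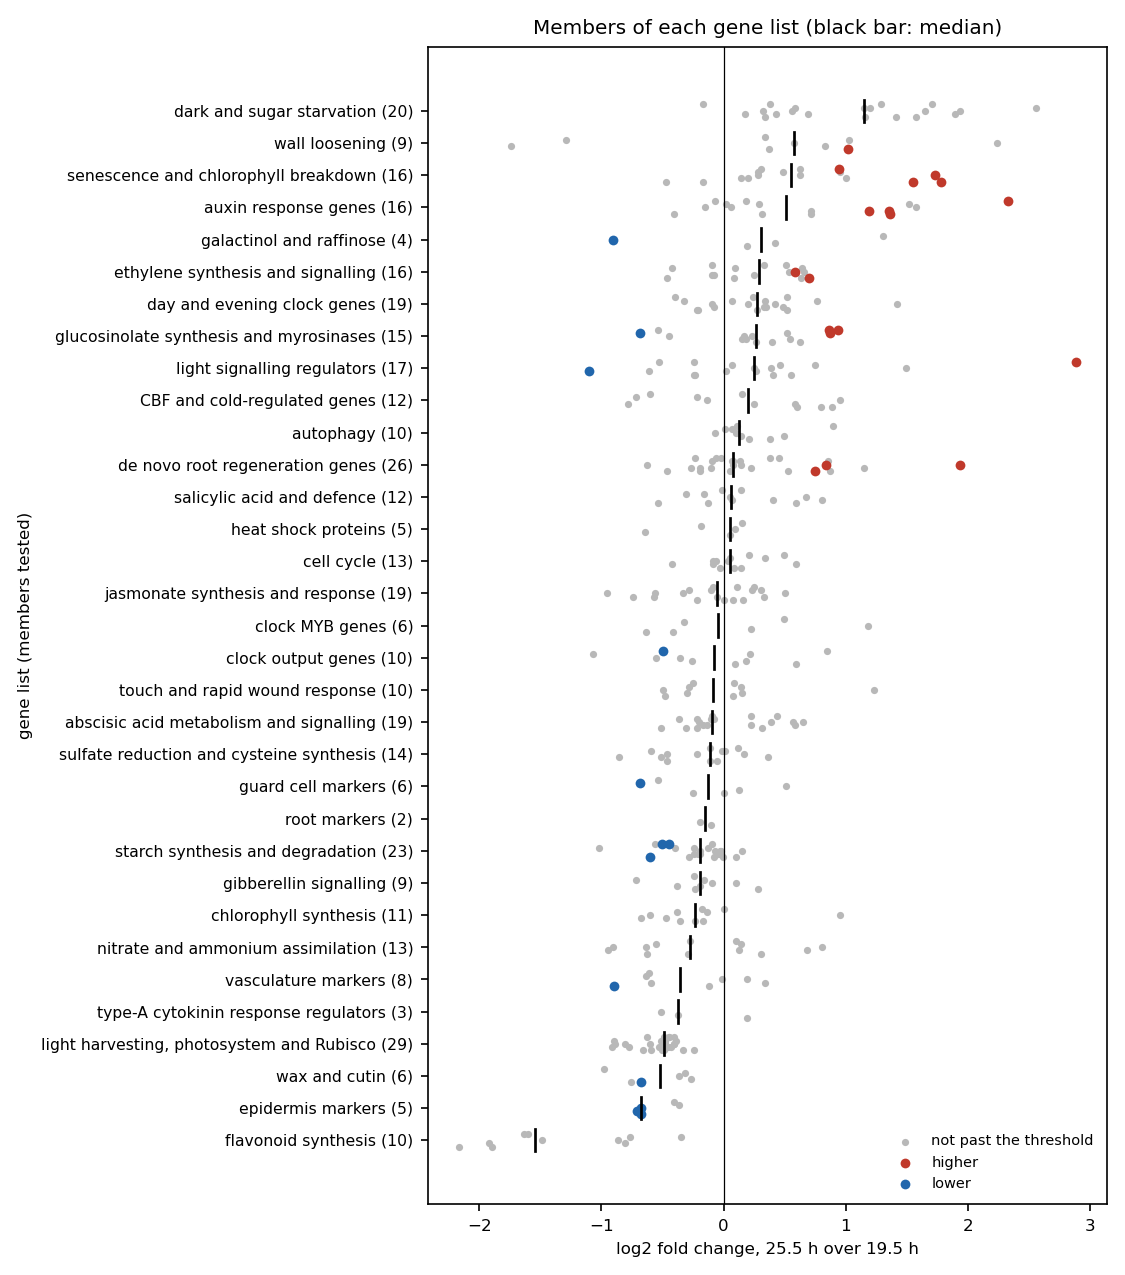
Log2 fold change, 25.5 h over 19.5 h, of each tested member of 33 gene lists, ordered by median (black bar), with members called higher in red and lower in blue. The medians ran from -1.54 for flavonoid synthesis to 1.15 for darkness and sugar starvation, in both of which no member was called.

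Flavonoid synthesis genes had the lowest median of the 33 lists, -1.54 over 10 genes, all below 0. None was called by edgeR or limma-voom, 2 were lower by DESeq2, and 5 were lower at an unadjusted p under 0.05 (1662 of 17567 over all genes). They make the ultraviolet-absorbing pigments of the leaf. TT4, chalcone synthase, had 213, 272 and 277 CPM at 19.5 h and 65, 72.3 and 33.6 CPM at 25.5 h, without overlap (log2 fold change -2.17, SE 0.69, adjusted p = 0.0718). Of the 10 genes, 9 had their lowest value in the 25.5 h replicate 3 (4203 of 17567 over all genes), and without the third replicates the median was -0.83. With the 3 libraries of other time points left out, a setting chosen after seeing the data, 5 of the 10 were called lower (1261 of 17567 over all genes).

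Among light signalling genes, 1 of 17 rose and 1 fell (2.07% and 1.45% of all genes tested). HFR1, a bHLH regulator of seedling greening that restrains shade growth, had 1.3, 1.87 and 3.70 CPM at 19.5 h and 9.40, 10.5 and 32.7 CPM at 25.5 h. Its log2 fold change of 2.88 (SE 0.52, adjusted p = 0.00215) was the largest of any list member called, and it kept its call in 5 of 6 leave-outs (adjusted p = 0.0547 without the 25.5 h replicate 3). ELIP1, an early light-induced protein of the thylakoid, went from 7.36, 6.85 and 5.45 CPM to 4.43, 2.36 and 2.36 CPM (log2 fold change -1.1, adjusted p = 0.0217) and kept its call in 2 of 6.

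Of 23 starch genes tested, 3 fell and none rose (1.45% and 2.07% of all genes tested). A value below 0 was found in 21 of them (8508 of 17567 over all genes). The starch synthase SS1 had 169, 177 and 185 CPM against 118, 132 and 124 CPM, a log2 fold change of -0.51 (SE 0.13, adjusted p = 0.0279). SS2 stood at -0.60 (adjusted p = 0.0272) and LSF1, a regulator of starch breakdown, at -0.45 (adjusted p = 0.0267). SIP1, which makes raffinose, fell from 26.1, 39.6 and 31.8 CPM to 17.5, 20.0 and 14.6 CPM (log2 fold change -0.91, adjusted p = 0.0142), the only call among 4 galactinol and raffinose genes. The 3 starch calls were kept in 1 of 6 leave-outs each and that of SIP1 in 4. With library totals the calls of SS1, SS2 and LSF1 were lost (adjusted p = 0.0524, 0.0887 and 0.134).

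Glucosinolates are the sulfur-rich defence compounds of the cabbage family, and myrosinases release their toxic products. Of 15 genes tested, 3 rose and 1 fell (2.07% and 1.45% of all genes tested). MAM1, which lengthens methionine for aliphatic glucosinolates, had 162, 110 and 202 CPM against 293, 255 and 318 CPM, a log2 fold change of 0.87 (SE 0.17, adjusted p = 0.00464). BCAT4, the aminotransferase that starts the chain, stood at 0.94 (adjusted p = 0.00919) and CYP79F1, the first enzyme of the core pathway, at 0.86 (adjusted p = 0.0181). The myrosinase TGG1 fell from 1166, 955 and 999.7 CPM to 656, 637 and 645 CPM, a log2 fold change of -0.68 (adjusted p = 0.0255). The 3 synthesis genes did not overlap between the time points and kept their calls in 3 to 5 of 6 leave-outs, while TGG1 lost its call in all 6.

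Smaller numbers of calls came from other lists, against 2.07% called higher and 1.45% lower over all genes tested. In the ethylene list 2 of 16 rose, the receptor ERS1 (log2 fold change 0.69, adjusted p = 0.0171) and the transcription factor EIL1 (0.59, adjusted p = 0.0226), and the groups of EIL1 overlapped. Both kept their calls in 3 of 6 leave-outs. EXPA1, an expansin that loosens cell walls, had 8.84, 9.26 and 10.8 CPM against 17.5, 17.5 and 23.7 CPM (log2 fold change 1.02, adjusted p = 0.00442) and was the only call among 9 wall-loosening genes, kept in 5 of 6 (adjusted p = 0.0676 without the 25.5 h replicate 3). None of 19 abscisic acid, 19 jasmonate, 12 cold, 12 salicylic acid, 10 touch, 9 gibberellin, 13 cell cycle, 5 heat shock, 10 autophagy, 11 chlorophyll synthesis, 13 nitrogen, 14 sulfur or 3 type-A cytokinin response genes was called by edgeR. EAR1, called higher above, was meant for the abscisic acid list but left out of it because the name table gives its locus no such symbol. At an unadjusted p under 0.05, 7 of the abscisic acid, 5 of the nitrogen and 3 each of the jasmonate and chlorophyll synthesis genes passed. In each of the other lists 0 to 2 genes did, against 3484 of 17567 over all genes. DESeq2 called 2 of the nitrogen genes lower and 1 autophagy gene higher, and limma-voom 1 nitrogen gene lower and 1 jasmonate gene higher.

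Markers of leaf cell types were checked beside these results. The leaf label was matched by the high light harvesting level given above. Of 6 root markers PLT1, WOX5, COBL9 and RHD6 were below the level for testing. The other 2, SHR and SCR, were tested and not called, and together they took 41.9 to 50.1 CPM in the 6 libraries. Of 5 tested epidermis markers 3 fell (1.45% of all genes tested). They were ATML1 and PDF2, which specify the epidermis, and FDH, which makes its lipids, at -0.68, -0.71 and -0.68 on the log2 scale (adjusted p = 0.023, 0.0487 and 0.0279). ATML1 had 76.5, 93 and 60.7 CPM at 19.5 h and 50.6, 51.8 and 41.4 CPM at 25.5 h, and it kept its call in 3 of 6 leave-outs, FDH in 2 and PDF2 in none. With library totals none of the 3 was called (adjusted p = 0.063, 0.12 and 0.0781). The summed level of the epidermis list was 1769 to 2194 CPM at 19.5 h and 1336 to 1611 CPM at 25.5 h. In 4 of its 5 genes the lowest of the 6 values was in the 25.5 h replicate 3 (4203 of 17567 over all genes). In the vasculature list 1 of 8 fell, XCP2, a protease of xylem cells (-0.90, adjusted p = 0.0359, call lost in all 6 leave-outs), and the summed levels overlapped, with 583 to 811 CPM and 703 to 818 CPM. The guard cell list summed to 1715 to 1998 CPM and 1196 to 1245 CPM, most of it TGG1 and TGG2. Its 6 genes did not move together, with 4 below 0 and 2 above (median -0.13, range -0.68 to 0.51), and TGG1 was the only call. The part of cell-type makeup in the other calls was not tested. Of 73 tested plastid genes 2 were called higher and 1 lower (4.11%, against 3.52% of all genes tested). Of 22 mitochondrial genes none was called by edgeR, DESeq2 or limma-voom. At an unadjusted p under 0.05 there were 2 (3484 of 17567 over all genes).

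The same span of 6 h, started 0.5 h later, was given by 26 h against 20 h, which shares no library with the pair above. The LHY means there were 57.7 ± 14.4 and 183 ± 35.1 CPM (SD, n = 3). That pair had 3490 genes called higher (19.9% of all tested) and 3453 lower (19.7%), and 2229 and 2319 without the 26 h replicate 2. Of the 619 genes called above, 595 (96.1%) had the same direction there, against 73.9% of all genes tested. In 507 (81.9%) the change was also called, against 39.5% of all genes, and without the 26 h replicate 2 the numbers were 584 and 440. In 4 genes it was called in the opposite direction. Genes are not independent replicates, and all pairs share the pooled spread. CSD1 stood at 2.2, GASA1 at 1.73, ORE1 at 1.75, YSL2 at -1.92, FSD1 at -1.62 and CA1 at -3.24 on the log2 scale, each past the threshold. The auxin genes GH3.3 (0.77, adjusted p = 0.222), GH3.5 (0.54, adjusted p = 0.187) and IAA19 (0.10, adjusted p = 0.799) and EAR1 (-0.14, adjusted p = 0.505) did not pass there, and the test of the difference between the pairs did not pass for any of the 4 (adjusted p = 0.259, 0.372, 0.128 and 0.0848).

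The change itself differed between the pairs in 326 of 17567 genes (1.86%), 309 of which had the larger change in 26 h against 20 h and 194 of which had opposite signs in the pairs. Of the 326, 20 were among the 619. At an unadjusted p under 0.05 the number was 2993. PRR3, which stabilizes TOC1, was the only clock gene, with 5.01, 3.71 and 2.68 CPM at 19.5 h, 7.08, 6.53 and 5.71 CPM at 25.5 h, 1.29, 1.99 and 1.73 CPM at 20 h and 10.2, 11.9 and 12.8 CPM at 26 h. Its log2 fold changes of 0.77 and 2.79 differed by -2.02 (SE 0.54, adjusted p = 0.0419, and 0.099 without the 26 h replicate 2). The count of 326 became 54 without the 26 h replicate 2 and 885 without the 26 h replicate 3 and 0 with only the 12 libraries compared in the fit (2420 at an unadjusted p under 0.05), so it changes with single libraries and with the libraries in the fit.

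In the pair with low LHY, 24.5 h against 21 h, 1282 genes were called higher (7.3%) and 1128 lower (6.42%). Of the 619 genes, 573 (92.6%) had the same direction there, against 66.6% of all genes tested, and 238 (38.4%) were also called in that direction, against 13.7%. That pair spans 3.5 h and not 6 h, so the difference was not tested and the values stand side by side. CSD1, CSD2 and CCS were at 1.22, 1.32 and 1.02, FSD1 at -1.12, COPT2 at -2.18 and ORE1 at 1.56 on the log2 scale, each past the threshold. GH3.3 was at -1.09 (adjusted p = 0.133) and IAA19, the 1 gene called there in the opposite direction, at -0.93 (adjusted p = 0.0163).

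**Figure D5:**
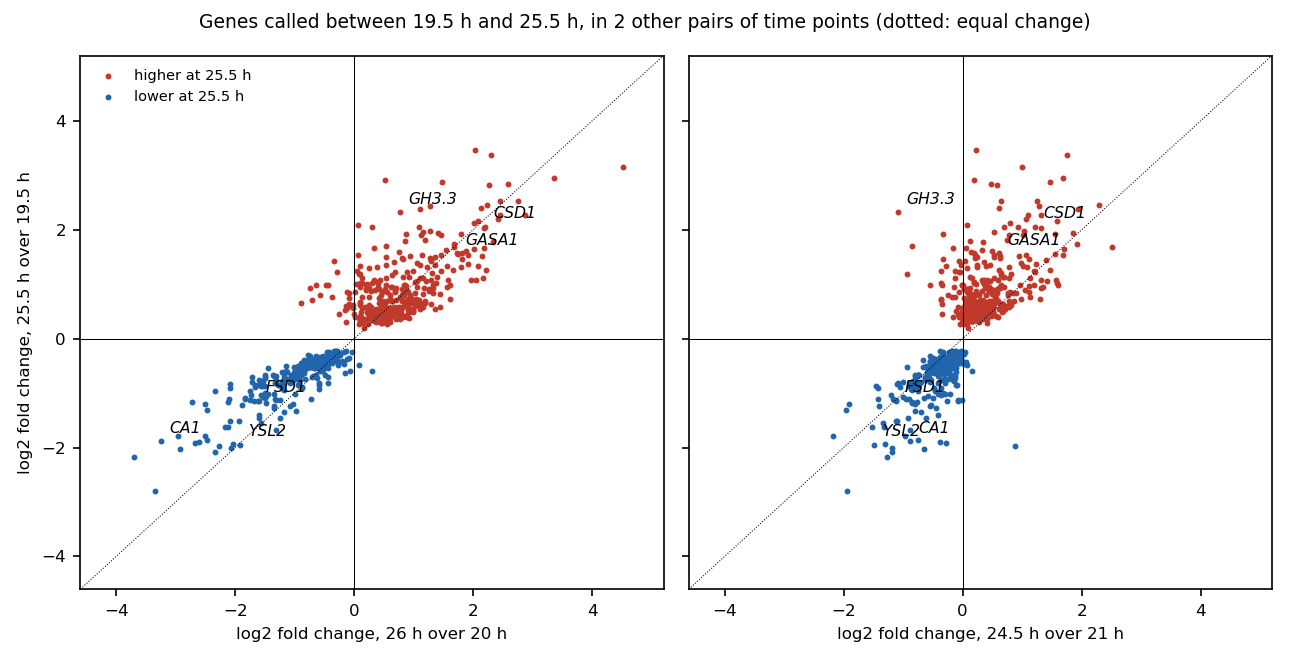
Log2 fold change of the 619 called genes, 25.5 h over 19.5 h (vertical axis), against that of 26 h over 20 h (left) and 24.5 h over 21 h (right), with genes called higher in red and lower in blue and a dotted line of equal change. On the left 595 genes and on the right 573 lie on the same side of 0 in both pairs, and GH3.3 lies at 0.77 on the left and -1.09 on the right.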

How the data were processed

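RNA was sequenced from excised leaves at 16 time points with 3 replicates each. The deposited values are whole-number read counts per gene, which per the study's methods the authors made by quality control in FastQC, alignment to TAIR10 with STAR and counting with HTSeq. Not given in the sources used here were versions, annotation release and strand setting, so reads of antisense or overlapping genes may not be separated. One column of values, a row index, belonged to no sample (1 unused column). Of 474 gene list entries, 468 matched name and locus in the RefSeq table of TAIR10.1, which was used for names only.

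Counts were fitted in edgeR 4.0.16 (R 4.3.3) with TMM factors and the quasi-likelihood F test over all 48 libraries. Time point and replicate number were factors (30 residual degrees of freedom). The study's methods give an edgeR model with replicate number as a factor for differential expression. For rhythmic genes in the time course the study used MetaCycle. The filter was a mean CPM of 1 or more, and p-values were adjusted by Benjamini-Hochberg over 17567 genes, a call being an adjusted p under 0.05. LHY was left untested. CPM were computed here from the counts and the TMM factors. DESeq2 1.42.0, limma-voom (limma 3.58.1), other scalings, filters and left-out libraries were alternatives. The rule for naming took in the listed clock genes, not all of which are printed here. It added the 12 largest rises and 12 largest falls among called genes with at least 10 CPM and groups without overlap. Further members were up to 4 called genes of each other list, EAR1 and the genes whose promoters the study followed. Called genes outside the rule are marked as picked or named after their values were seen. Members and lists were chosen with earlier results of these data known. Promoter sequences were not used here.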

Additional observations from a re-analysis of the deposited data

Results flagged for a closer look

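A difference between the changes over 25.5 h against 19.5 h and 26 h against 20 h, tested as an interaction in edgeR, was found in 326 genes. Those among the gene lists are given here with the difference of the log2 fold changes, 25.5 h against 19.5 h minus 26 h against 20 h. In the vasculature list XCP1, a xylem protease, differed by 1.56 (adjusted p = 0.0229), and the cellulose synthases of the secondary wall IRX3 and CESA4 by 1.16 and 1.1 (adjusted p = 0.0388 and 0.0483). The 3 genes fell in 26 h against 20 h, by 2.18, 1.79 and 1.69 on the log2 scale, and stood at -0.61, -0.64 and -0.59 in 25.5 h against 19.5 h, where none was called. Of the cell cycle genes, CDKB2;1, a mitotic kinase, differed by 1.42 (adjusted p = 0.00788), CYCD3;1, a G1 cyclin, by 1.19 (adjusted p = 0.0249) and KN, a syntaxin of the cell plate, by 0.94 (adjusted p = 0.0428). SHR, a root patterning regulator, differed by 1.01 (adjusted p = 0.0102), the auxin response factor ARF5 by 0.68 (adjusted p = 0.038), the sulfate transporter SULTR2;1 by 1.05 (adjusted p = 0.00788) and CYP83A1 of glucosinolate synthesis by 0.77 (adjusted p = 0.0387). PRR3 differed by -2.02, with the larger rise in 26 h against 20 h. Without the 26 h replicate 2, the differences of CDKB2;1, SHR and SULTR2;1 remained past the threshold (adjusted p = 0.0418, 0.0493 and 0.0359). Those of XCP1, IRX3, CESA4, CYCD3;1, KN, ARF5, CYP83A1 and PRR3 did not (0.0893, 0.146, 0.17, 0.0779, 0.157, 0.0688, 0.0807 and 0.099), and 51 of the 326 genes did in all.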

How the results depend on the processing

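The counts moved with the scaling, the filter and single libraries, and the cause was not tested. Main counts were 364 genes higher, 255 lower, 111 and 55 of them by at least 2-fold, 326 that differed from 26 h against 20 h, and 2410 called in 24.5 h against 21 h. With library totals alone they were 1724 higher, 108 lower, 244 and 35 by at least 2-fold. With a mean of at least 5 CPM, 60 and 32 passed 2-fold, and 199 differed, against 209 with no filter. With only the libraries compared, 84 were lower by at least 2-fold and 0 differed. DESeq2 gave 530 lower, 88 by at least 2-fold, and 656 that differed. Without the 22.5 h replicate 1 and 24 h replicate 3 there were 678 higher, 831 lower, 107 lower by at least 2-fold and 685 that differed. The next 2 alternatives were chosen after seeing the data. Leaving out the 26 h replicate 2 as well gave 1004 higher, 1261 lower, 179 and 126 by at least 2-fold, and 4001 in 24.5 h against 21 h. Without the third libraries of 19.5 h and 25.5 h there were 39 higher, 14 lower, 29 and 10 by at least 2-fold, and 53 that differed. Leaving out each replicate of 19.5 h and 25.5 h in turn gave 58 to 236 higher, 24 to 186 lower, and 35 to 120 and 11 to 51 by at least 2-fold. Without a replicate of 20 h or 26 h there were 333 to 593 higher and 276 to 545 lower, the most without the 26 h replicate 2. Leaving out each replicate of the 4 time points gave 54 to 885 that differed. Without the 26 h replicate 2, 26 h against 20 h had 4548 called genes in place of 6943. Some named genes that were not called changed sign. FKF1 (0.33) stood at -0.32 without the third libraries and between -0.24 and 1.36 with 1 library left out, and AFB2 (0.02) at -0.03 and between -0.11 and 0.11. LNK4 (-0.08), LKP2 (-0.10) and ARF7 (-0.10) stood at 0.07, 0.05 and 0.05 with library totals. With 1 library left out LNK4 lay between -0.27 and 0.12, RVE1 (0.23) between -0.04 and 0.53 and BOA (0.24) between -0.04 and 0.74. All 52 called genes named by the rule kept their sign, and DESeq2, its size factors and the fit with no replicate block kept all 52 calls. The calls of 13 were lost with only the libraries compared, of 7 with library totals, of 3 each with limma-voom and no filter, and of 15 to 41 with 1 library of 19.5 h or 25.5 h left out. With no replicate block 407 genes were higher and 318 lower, 120 and 66 by at least 2-fold, 391 differed, and 615 of the 619 calls were kept. Deviations from the mean of the own time point correlated at 0.125, 0.0607 and 0.331 between 25.5 h and 19.5 h libraries of equal replicate number, which does not show pairing. The number was kept as a factor because the study's methods use it. In these deviations the 25.5 h replicate 1 correlated best with the 19.5 h replicate 2 (0.611).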
